A study of Homo sapiens with 4 samples.

Results

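The genes described here are 39 targets and regulators of the tumour suppressor p53, taken by name from a list of the pathway and sorted by role into feedback (4 genes), arrest (9), apoptosis (13) and repair or metabolism (13). All 39 were found among the 60656 genes of the count tables, and 36 had enough reads to be tested. Transcription was measured by TTchem-seq, in which RNA made during a short pulse of 4-thiouridine is fragmented, purified and sequenced, in HCT116, a human colorectal carcinoma line known to carry functional p53. The 2 DKO libraries came from cells labelled TOP2A + TOP2B double knockout: both endogenous TOP2A alleles carry the auxin-inducible degron mAID, TOP2B was knocked out with CRISPR/Cas9, and TOP2A protein was removed with 500 µM auxin over 8 h. The 2 WT libraries are labelled wildtype. The protocol also names the TOP2A mAID line, and the labels do not say whether the WT libraries came from it. All cells had been held in G1 for 28 h by the CDK4/6 inhibitor palbociclib (2 µM) and were pulsed for 30 min with 4-thiouridine (1 mM). The labels record auxin only for DKO, and the labels do not say how many clones stand for the knockout, so enzyme loss, auxin and clone cannot be told apart.

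p53 is a transcription factor that is kept scarce by MDM2, a ubiquitin ligase which p53 itself switches on. DNA damage kinases free p53 from MDM2, and p53 then activates genes that stop the cell cycle, prepare cell death, assist DNA repair and adjust metabolism. Breaks left by drugs that trap type II topoisomerases on DNA are a classical trigger. MDM4, PPM1D and cyclin G1 act with MDM2 to hold the response back. Because the assay reads new RNA, it follows transcription of these genes rather than the amount of their proteins.

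Counted reads ranged from 51142867 to 53777749 per library. The gene counts do not show the edits: TOP2B stood at 147 and 150 CPM (a gene's reads scaled to the library's reads in tested genes, adjusted by its TMM factor) in DKO and 140 and 143 in WT (log2 fold change 0.07 ± 0.05, adjusted p = 0.223), and TOP2A, whose protein is the target of auxin, was higher in DKO (0.42 ± 0.05, adjusted p = 3.46e-15). The 7 epithelial markers summed to 446 to 457 CPM in DKO and 492 to 521 in WT, with CDH1, KRT8, KRT18 and CLDN4 lower. EPCAM (log2 fold change 0.04), KRT19 (0.04) and CLDN3 (-0.63, adjusted p = 0.118) were not called. The 6 intestinal markers summed to 14.4 to 16.1 CPM over the 4 libraries, most of it from CDX2 (10.6 to 13 CPM). ELF3 was lower, and CDX2 (0.19) and GPA33 (0.24) were not called. CDX1, VIL1 and LGR5 had at most 11 reads in any library. The 6 fibroblast markers summed to 3.14 to 3.86 CPM, nearly all from COL1A1 (158 to 192 reads), with COL1A2 and LUM at 0. Of 6 neuronal markers SYT1, SNAP25 and NCAM1 were higher in DKO, RBFOX3 (0.19, adjusted p = 0.683) and TUBB3 (-0.13, adjusted p = 0.762) were not called, and STMN2 had at most 2 reads. Their sum was 521 and 595 CPM in DKO against 133 and 136 in WT, of which SYT1 alone gave 513 and 586 against 131 and 135, and the part of these marker shifts in the p53 results was not tested. Errors given after ± are standard errors of the log2 fold change with n = 2 libraries per group. The labels do not name separate cultures, so p-values measure the spread between these libraries, which may be technical.

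GDF15, FAS, PLK2, CDKN1A and TP53INP1 gave more nascent RNA in DKO, by 1.31- to 1.81-fold, and these 5 calls held under each of 12 alternative settings. MDM2, the ligase that p53 induces, was called in none of them, nor were the cell death genes BBC3, BAX and PMAIP1. Altogether 11 of the 36 tested genes were higher and 6 lower at an adjusted p under 0.05, edgeR's quasi-likelihood test adjusted over all genes. That is 47.2% called, against 40.1% of all 19103 tested genes (19% higher, 21.1% lower) and 45.5% of the 13178 tested protein-coding genes (20.3% higher, 25.1% lower). The share called is thus near the background, and the members split into 30.6% higher and 16.7% lower. Their median log2 fold change was 0.05, against -0.01 over all tested genes, and the median of its absolute value was 0.15 against 0.19. None of the 36 changed by more than 2-fold, a size that 4.72% of all tested genes and 3.77% of protein-coding genes passed. The 2 libraries of DKO lay wholly above or below those of WT for 28 genes (77.8%), against 67.9% of all tested genes and 71.6% of protein-coding genes. In such bulk libraries, a change in the share of cells that transcribe a gene and a change per cell cannot be told apart.

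**Figure D1:**
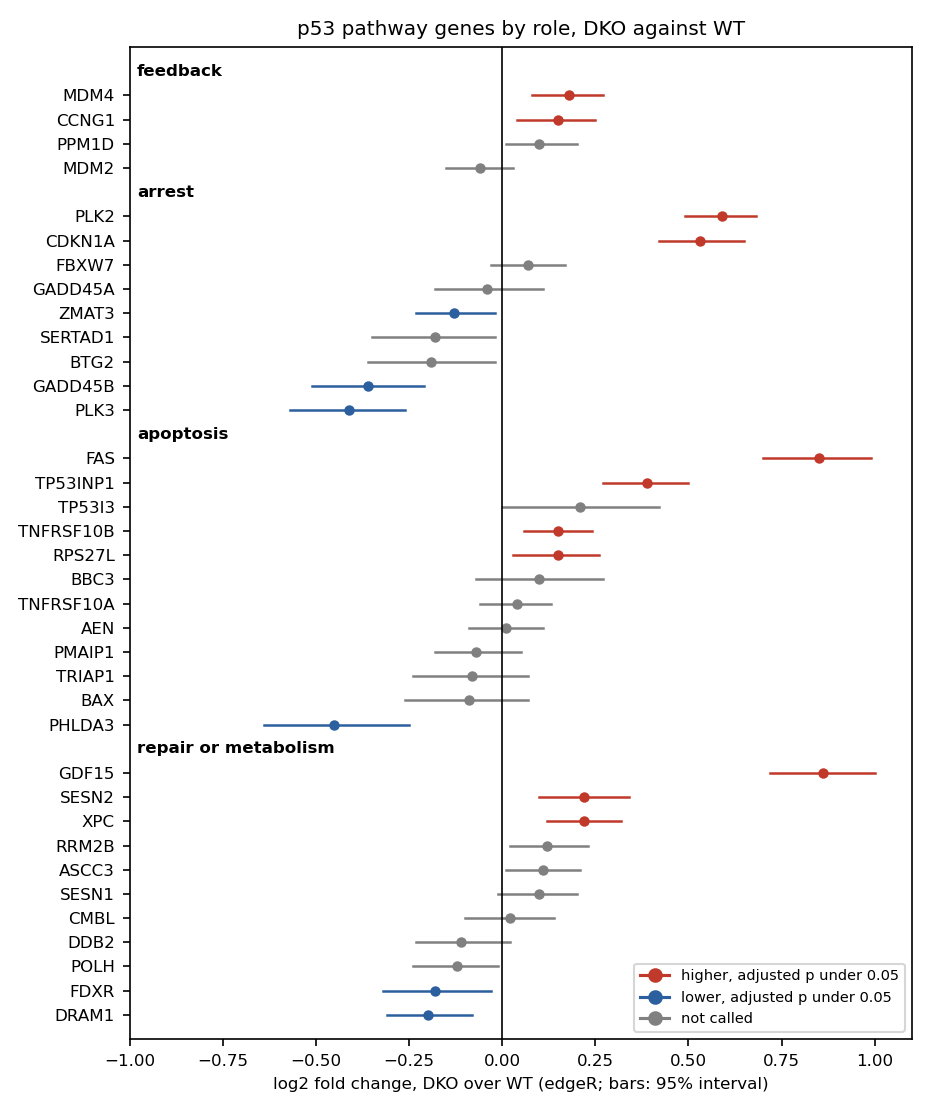
Log2 fold change of DKO over WT (x axis) for the 36 tested genes, sorted by role, with points for the edgeR estimate and bars for its 95% interval; red is higher, blue lower and grey not called at an adjusted p of 0.05. GDF15, FAS, PLK2, CDKN1A and TP53INP1 lie farthest to the right, between 0.39 and 0.86, PHLDA3, PLK3 and GADD45B farthest to the left, between -0.36 and -0.45, and MDM2 sits at -0.06.

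Promoter sequence was compared with these values, since p53 binds a 20-base site made of a pair of 10-base half-sites. Windows from 250 bases before to 50 after an annotated start were available for 31 of the 39 genes (RefSeq, GRCh38.p14). The p53 consensus site was searched with at most 2 mismatches, the C and G of each core kept, and 0 or 1 base between the half-sites. The consensus is a palindrome, so the search covers both strands. Sites were found in 4 of 31 genes (12.9%), against 0.674% of 27305 genes with windows of the same length. An exact half-site was found in 7 of 31 (22.6%), against 8.06% of all genes. The genes were listed as p53 pathway genes, so these excesses may follow from that choice and do not bear on DKO. Among members with windows, full sites lay in 1 of 14 called genes (7.14%) and 3 of 14 tested genes without a call (21.4%). Half-sites lay in 4 (28.6%) and 3 (21.4%) of them. The 4 sites are shown because they set a called gene beside genes that were not called; capitals mark the site.
FAS: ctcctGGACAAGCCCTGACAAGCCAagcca
MDM2: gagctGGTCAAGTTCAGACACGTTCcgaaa
AEN: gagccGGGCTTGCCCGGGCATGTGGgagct
DDB2: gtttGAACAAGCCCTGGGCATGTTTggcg
The FAS stretch lies at chr10:88991304-88991333, on the plus strand, and its site begins 122 bases upstream of an annotated start within the gene. The MDM2 site (chr12:68808918-68808947, plus strand) begins 94 bases upstream of an internal start, and the AEN site (chr15:88621301-88621330, plus strand) 34 bases upstream of one. The DDB2 stretch (chr11:47214975-47215003, plus strand) holds a site with 0 mismatches and 1 base between its half-sites, which begins at base 6 of the transcript; an overlapping match with 1 mismatch starts 5 bases upstream. Of these 4 genes FAS was called (log2 fold change 0.85), and MDM2 (-0.06), AEN (0.01) and DDB2 (-0.11) were not. Half-sites without a full site lay in the windows of PLK2, higher at 0.59, RPS27L, higher at 0.15, FDXR, lower at -0.18, and SESN1, not called at 0.10. The PLK2 half-site reads as follows, from chr5:58460204-58460223 on the minus strand.
PLK2: ggacaAGACTTGCTTcccgg
No match in a window says only that these letters are not in it, as for CDKN1A and GDF15. The called genes TP53INP1, TNFRSF10B and PHLDA3 had no window and were not searched.

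Of the 4 feedback genes, MDM4 and CCNG1 were higher by small amounts and MDM2 and PPM1D were not called. That is 50% higher and 0% lower, beside 20.3% and 25.1% of the tested protein-coding genes. MDM2 was read at 175 and 177 CPM in DKO and 181 and 186 in WT, from 9335 to 9515 reads in each library. Its log2 fold change was -0.06 ± 0.05 (adjusted p = 0.318), and the 95% interval, from -0.15 to 0.03, includes no change. The CPM values of both DKO libraries lay slightly below those of both WT libraries. MDM4, which encodes a relative of MDM2 that masks the activation domain of p53, stood at 139 and 145 CPM in DKO against 123 and 128 in WT (0.18 ± 0.05, adjusted p = 0.00103). CCNG1, the cyclin G1 gene, stood at 66.4 and 62.4 against 57.1 and 59.3 CPM (0.15 ± 0.05, adjusted p = 0.0152). The groups did not overlap for either gene. PPM1D, which encodes a phosphatase that reverses damage signalling, was at 117 and 120 CPM in DKO and 107 and 114 in WT (0.10 ± 0.05, adjusted p = 0.0686). Adjusted p ranged over the alternatives from 1.72e-04 to 0.165 for MDM4 and from 0.0028 to 0.282 for CCNG1, both highest without WT replicate 1. Both also missed the threshold without WT replicate 2 (0.0725 and 0.133), and CCNG1 without DKO replicate 1 (0.168, log2 fold change 0.10). PPM1D passed in 4 of the 12 alternatives, among them upper quartile factors (0.0186) and the fit without DKO replicate 1 (0.0404), over a range of 0.0186 to 0.506.

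Of the 9 arrest genes, 2 were higher, 3 lower and 4 not called. That is 22.2% higher and 33.3% lower, beside 20.3% and 25.1% of the tested protein-coding genes. CDKN1A, which encodes the cyclin-dependent kinase inhibitor p21 and is the central arrest target of p53, was read at 43.9 and 42.8 CPM in DKO against 30.9 and 29 in WT. This is a 1.45-fold difference (log2 0.53 ± 0.06, adjusted p = 1.99e-15), in cells that palbociclib held in G1. PLK2, a polo-like kinase gene induced by stress and growth signals, was read at 127 and 113 CPM against 81.6 and 77.7 (0.59 ± 0.05, adjusted p = 3.99e-24). Both genes were higher in each DKO library than in either WT library. Their relative PLK3 went the other way, at 12.3 and 11.9 CPM in DKO against 17.6 and 14.7 in WT (-0.41 ± 0.08, adjusted p = 4.72e-06). GADD45B, a stress gene that feeds into MAP kinase signalling, was lower too, at 13.7 and 12.6 against 17.4 and 16.5 CPM (-0.36 ± 0.08, adjusted p = 3.49e-05). ZMAT3, which encodes an RNA-binding protein, was at 55.2 and 53.3 against 58.4 and 60.1 CPM (-0.13 ± 0.05, adjusted p = 0.0416). The PLK3 and GADD45B groups are separate, but the WT libraries of PLK3 lay 0.26 apart on the log2 scale. Leaving out WT replicate 1 ended the calls of PLK3 and GADD45B, at -0.28 (adjusted p = 0.0955; range 3.67e-06 to 0.0955) and -0.32 (0.0884; range 3.42e-05 to 0.0884). ZMAT3 lost its call in 8 of 12 alternatives, among them those without WT replicate 1 (0.164), WT replicate 2 (0.254) or DKO replicate 2 (0.188), over a range of 0.0376 to 0.254.

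The 4 arrest genes without a call were BTG2, SERTAD1, GADD45A and FBXW7. BTG2, an antiproliferative early response gene, was at 11.4 and 9.88 CPM in DKO and 11.8 and 12.4 in WT (-0.19 ± 0.09, adjusted p = 0.0716). Without DKO replicate 1 it passed, at -0.29 (adjusted p = 0.0201; range 0.0201 to 0.553). SERTAD1, whose product binds CDK4, was at 11 and 11 against 12.4 and 12.6 CPM (-0.18 ± 0.08, adjusted p = 0.0719). GADD45A, the family member best known as a p53 target, was at 15.7 and 15.7 against 15.4 and 16.9 CPM (-0.04 ± 0.08), and its groups overlapped. FBXW7, which encodes a ubiquitin ligase subunit for cyclin E and MYC, was at 393 and 418 against 380 and 393 CPM (0.07 ± 0.05).

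**Figure D2:**
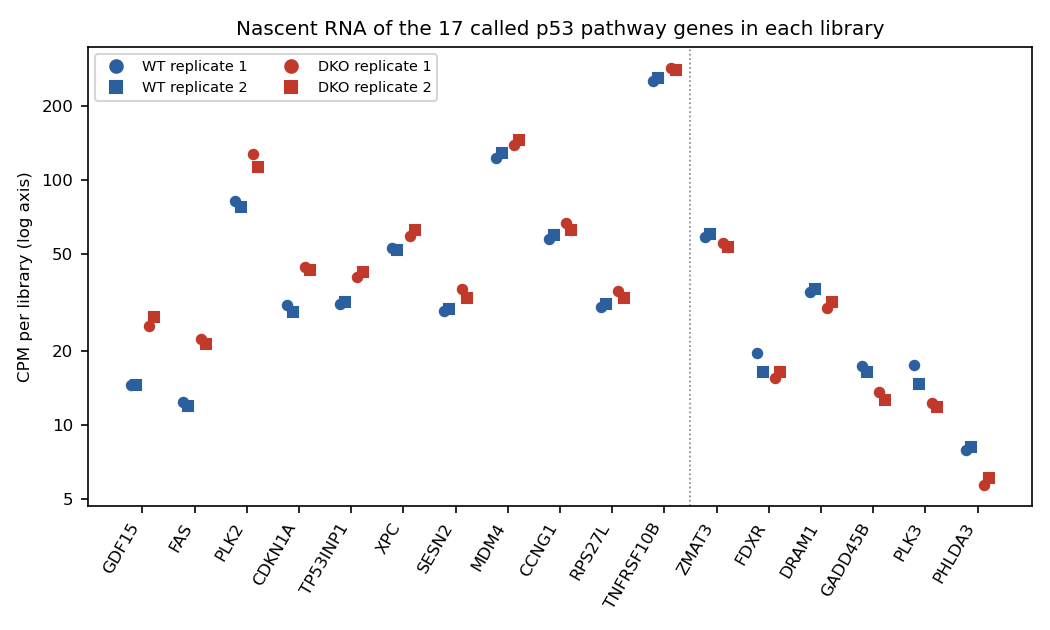
CPM in each of the 4 libraries (y axis, log scale) for the 17 called genes, ordered by log2 fold change, with WT in blue, DKO in red, circles for replicate 1 and squares for replicate 2; the dotted line parts the 11 higher from the 6 lower genes. The red and blue points separate widely for GDF15 (25.4 and 27.6 against 14.6 and 14.6) and FAS, and overlap for FDXR, where DKO replicate 2 (16.5) lies above WT replicate 2 (16.4).

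Among the 12 tested genes of cell death, 4 were higher, 1 was lower and 7 were not called. That is 33.3% higher and 8.33% lower, beside 20.3% and 25.1% of the tested protein-coding genes. FAS, the receptor for FAS ligand, was read at 22.4 and 21.5 CPM in DKO against 12.4 and 12 in WT, a 1.80-fold difference (log2 0.85 ± 0.07, adjusted p = 1.07e-21). TNFRSF10B, which encodes the TRAIL receptor DR5, was at 286 and 281 against 253 and 259 CPM (0.15 ± 0.05, adjusted p = 0.00717). Its neighbour TNFRSF10A, a further TRAIL receptor, was at 129 and 121 against 122 and 122 CPM with overlapping groups (0.04 ± 0.05, adjusted p = 0.57). BBC3, PMAIP1 and BAX, which encode the mitochondrial death proteins PUMA, NOXA and BAX, were not called. BBC3 was at 10.4 and 11.6 CPM in DKO and 9.89 and 10.7 in WT (0.10 ± 0.09, 95% interval -0.07 to 0.27). PMAIP1 was at 35.7 and 33.4 against 35.1 and 37.3 CPM (-0.07 ± 0.06, interval -0.18 to 0.05). BAX was at 12.6 and 12.4 against 14 and 12.6 CPM (-0.09 ± 0.08, interval -0.26 to 0.07). The upper bounds for these 3 genes lie below the FAS interval, which runs from 0.70 to 0.99.

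FAS shares 51.5% of its span with ACTA2 on the opposite strand, and ACTA2 was higher as well, at 2.67 and 2.44 CPM in DKO against 1.95 and 1.7 in WT (log2 fold change 0.48 ± 0.16, adjusted p = 0.00751). ACTA2 had 87 to 142 reads in each library and FAS 614 to 1191. The strand setting of the counting is not given in the sources used here, so reads of the pair cannot be told apart with certainty.

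TP53INP1, which encodes a nuclear protein that promotes p53-dependent death and autophagy, stood at 40.3 and 42 CPM in DKO against 31.3 and 31.7 in WT. The difference was 1.31-fold (log2 0.39 ± 0.06, adjusted p = 3.36e-09), and the groups were separate. NDUFAF6 covers the whole of its span and had more reads, at 156 and 158 CPM in DKO against 152 and 152 in WT. That gene did not pass the test (0.04 ± 0.05, adjusted p = 0.474). As the strand setting is not given, reads of this pair cannot be told apart with certainty either. RPS27L, a ribosomal protein-like gene, was at 35.2 and 32.9 against 30.3 and 31.2 CPM (0.15 ± 0.06, adjusted p = 0.0419). PHLDA3, which encodes a repressor of the survival kinase AKT, was lower, at 5.69 and 6.08 against 7.93 and 8.1 CPM (-0.45 ± 0.10, adjusted p = 8.92e-05). It had the largest fall among the 36 genes and rested on 303 to 414 reads. TP53I3, an oxidoreductase gene, was at 6.31 and 6.15 against 5.25 and 5.54 CPM (0.21 ± 0.11, adjusted p = 0.11), AEN, a nuclease gene, at 0.01 ± 0.05, and TRIAP1, an inhibitor of apoptosis, at -0.08 ± 0.08. Without WT replicate 1, adjusted p was 0.18 for TNFRSF10B (range 5.12e-04 to 0.18) and 0.0606 for PHLDA3 (range 7.07e-05 to 0.0606), so both calls ended. TNFRSF10B also missed the threshold without WT replicate 2 (0.106). RPS27L lost its call in 7 of 12 alternatives over a range of 0.00983 to 0.309, including those without DKO replicate 1 (0.309, log2 fold change 0.10), WT replicate 1 (0.305) or WT replicate 2 (0.175).

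Of the 11 tested repair or metabolism genes, 3 were higher, 2 lower and 6 not called. That is 27.3% higher and 18.2% lower, beside 20.3% and 25.1% of the tested protein-coding genes. GDF15 led this group. It encodes a secreted stress cytokine and was read at 25.4 and 27.6 CPM in DKO against 14.6 and 14.6 in WT, a 1.81-fold difference (log2 0.86 ± 0.07, adjusted p = 3.36e-24). The difference was larger than the 0.12 that parted the DKO replicates on the log2 scale. XPC and DDB2 encode damage sensors of nucleotide excision repair, and they did not move alike. XPC was at 59.1 and 62.2 against 52.6 and 51.7 CPM (0.22 ± 0.05, adjusted p = 2.41e-04), and DDB2 at 25.8 and 26.3 against 28.8 and 27.3 CPM (-0.11 ± 0.06, adjusted p = 0.171). SESN2, a sestrin gene that restrains mTORC1 under stress, was at 35.8 and 33 against 29.3 and 29.6 CPM (0.22 ± 0.06, adjusted p = 0.00133). Its relative SESN1 was at 51.2 and 55.5 against 50.1 and 49.5 CPM (0.10 ± 0.05, adjusted p = 0.128), and passed without DKO replicate 1 (0.16, adjusted p = 0.0288; range 0.0288 to 0.679). SESN1 shares 62.2% of its span with ARMC2 on the opposite strand, which was lower (-0.68 ± 0.08, adjusted p = 2.72e-14).

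The lower genes of this group were DRAM1 and FDXR. DRAM1, which encodes a lysosomal protein of autophagy, was at 30 and 31.6 CPM in DKO against 34.8 and 35.7 in WT (-0.20 ± 0.06, adjusted p = 0.00473). FDXR, the gene for mitochondrial ferredoxin reductase, was at 15.5 and 16.5 against 19.7 and 16.4 CPM (-0.18 ± 0.07, adjusted p = 0.0481). The FDXR groups overlapped, and its value was -0.04 without WT replicate 1 (adjusted p = 0.774) and -0.31 without WT replicate 2 (0.0581). It kept its call in 1 of 12 alternatives, over a range of 0.044 to 0.774. DRAM1 missed the threshold without DKO replicate 1 (0.0718), WT replicate 1 (0.109) or WT replicate 2 (0.133), over a range of 0.00486 to 0.133. XPC did so without WT replicate 1 (0.09; range 3.11e-05 to 0.09) or WT replicate 2 (0.0877). SESN2 did so without DKO replicate 1 (0.0608), WT replicate 1 (0.143; range 1.93e-04 to 0.143) or WT replicate 2 (0.106). Not called were RRM2B, a ribonucleotide reductase subunit gene (0.12 ± 0.05, adjusted p = 0.0546), ASCC3, a helicase gene (0.11 ± 0.05, 0.0868), POLH, a translesion polymerase gene (-0.12 ± 0.06, 0.0807), and CMBL, a hydrolase gene (0.02 ± 0.06, 0.85). RRM2B passed with DESeq2 size factors (0.0389; range 0.0124 to 0.341) and ASCC3 with the Wald test of DESeq2 (0.0296; range 0.011 to 0.329).

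All 17 called genes kept their direction in each of the 12 alternatives, which changed the scaling, the filter, the test, the block or the set of libraries. For all of them but FDXR the groups did not overlap. Leaving out 1 library could thus hardly turn their sign, and the kept direction adds little. Calls were another matter. The 5 genes named first kept theirs throughout, with log2 fold changes of 0.80 to 0.92 for GDF15, 0.82 to 0.88 for FAS, 0.50 to 0.67 for PLK2, 0.49 to 0.58 for CDKN1A and 0.36 to 0.42 for TP53INP1. Their largest adjusted p values were 0.0137, 0.0107, 0.0276, 0.0143 and 0.0374 in the same order. Without WT replicate 1, 12 of the 17 calls were lost, without WT replicate 2 9, without DKO replicate 1 5 and without DKO replicate 2 1. With no filter beyond 1 read 10 were lost. An exact permutation test of a single gene over 2 against 2 libraries cannot give a two-sided p below 0.333, so the fit across all genes carries the calls.

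**Figure D3:**
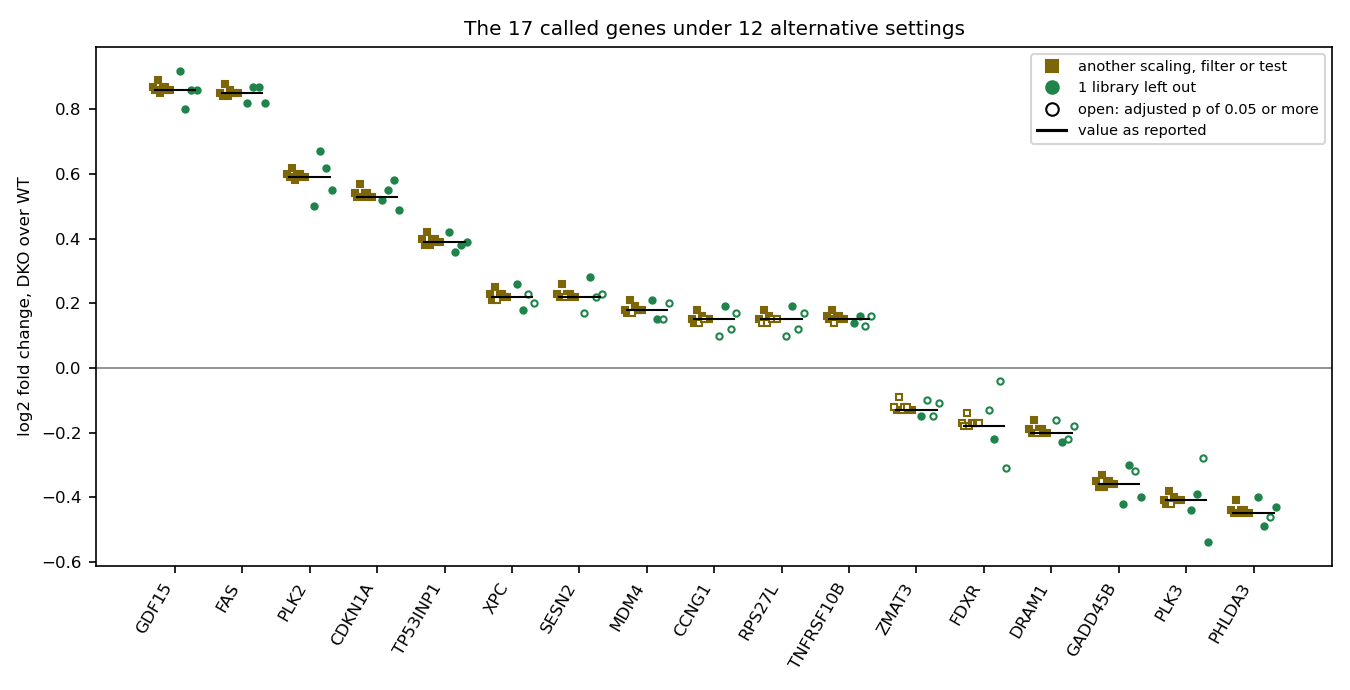
Log2 fold change of DKO over WT (y axis) for the 17 called genes under each of 12 alternatives, with squares for another scaling, filter, test or block, circles for fits without 1 library, open symbols for an adjusted p of 0.05 or more and a black line for the reported value. Symbols are filled throughout for the leftmost 5 genes, while FDXR is open in all but 1 setting and spreads from -0.31 to -0.04.

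Of 30 genes that act on p53 or belong to its family, 9 were higher and 5 lower. That is 46.7% called, near the background of 40.1% of all tested genes and 45.5% of protein-coding genes. The largest rises were small: TP53BP2, a p53-binding protein gene (0.32 ± 0.05), HUWE1, a ubiquitin ligase gene (0.23 ± 0.05), TRIM24, which encodes a further ligase for p53 (0.20 ± 0.05), and CREBBP, the acetyltransferase CBP (0.18 ± 0.05). The p53 relatives TP63 and TP73 were lower. TP73 went from 46.9 and 45 CPM in WT to 37.8 and 39 in DKO (-0.26 ± 0.06, adjusted p = 3.83e-05), and TP63 had 43 and 64 reads in DKO against 86 and 91 in WT (-0.77 ± 0.19, adjusted p = 4.58e-04). The checkpoint kinase genes CHEK2 (-0.24 ± 0.05) and CHEK1 (-0.17 ± 0.05) were lower too. Without WT replicate 1 the calls of HUWE1 (0.087), TRIM24 (0.11), CREBBP (0.137), TP63 (0.125), TP73 (0.0803) and CHEK1 (0.0953) ended, and without WT replicate 2 those of HUWE1 (0.0895), CREBBP (0.0859), TP63 (0.127), CHEK2 (0.1) and CHEK1 (0.119). TP63 also missed the threshold without DKO replicate 1, at -0.52, and with the Wald test of DESeq2 (adjusted p = 0.0504). With no filter beyond 1 read the edgeR calls of TP63 (0.0987), CHEK2 (0.075) and CHEK1 (0.0522) ended. Over all alternatives adjusted p reached from 2.22e-08 to 0.0895 for HUWE1, 1.44e-05 to 0.11 for TRIM24, 1.44e-05 to 0.137 for CREBBP, 9.89e-05 to 0.127 for TP63, 4.73e-05 to 0.0803 for TP73, 5.04e-05 to 0.1 for CHEK2 and 0.00172 to 0.119 for CHEK1.

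A further 60 genes, listed as p53 targets from general knowledge and not among the 39, extended the view. Of these 54 were tested, 18 were higher and 15 lower, with a median log2 fold change of 0.00. That is 61.1% called, beside 40.1% of all tested genes and 45.5% of protein-coding genes. The list was chosen with earlier results of these data known, so this share is not independent of them. SESN3, the third sestrin gene, was read at 12 and 13.9 CPM in DKO against 3.53 and 4.33 in WT, a 3.30-fold difference (1.72 ± 0.10, adjusted p = 1.63e-38). It thus exceeded SESN2 at 0.22 and SESN1 at 0.10. Whether p53 acts on SESN3 in these cells was not tested. CASP10, which encodes a caspase that acts downstream of death receptors, was at 3.61 and 4.24 against 1.68 and 1.72 CPM (2.31-fold, adjusted p = 3.14e-13). PRDM1, a repressor gene, had 57 and 45 reads against 28 and 24 (0.92 ± 0.26, adjusted p = 0.00195), and lost its call in 5 of the 11 alternatives that gave a value. The decoy TRAIL receptor gene TNFRSF10C had 16 and 19 reads in DKO against 3 and 2 in WT. The ratio of summed reads was 6.74, with a 95% counting interval of 2.63 to 22. The lower targets were led by SYTL1, a gene of vesicle transport (-0.67 ± 0.10), CDIP1, a gene of p53-dependent death (-0.64 ± 0.16), HEXIM1, an inhibitor of transcription elongation (-0.50 ± 0.07), and DUSP14, a phosphatase gene (-0.46 ± 0.05). Leaving out WT replicate 1 ended the call of CDIP1 (-0.61, adjusted p = 0.0732; range 2.02e-04 to 0.0732). PRDM1 did so without DKO replicate 1 (0.0662), WT replicate 1 (0.101) or WT replicate 2 (0.116), over a range of 0.00157 to 0.116.

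**Figure D4:**
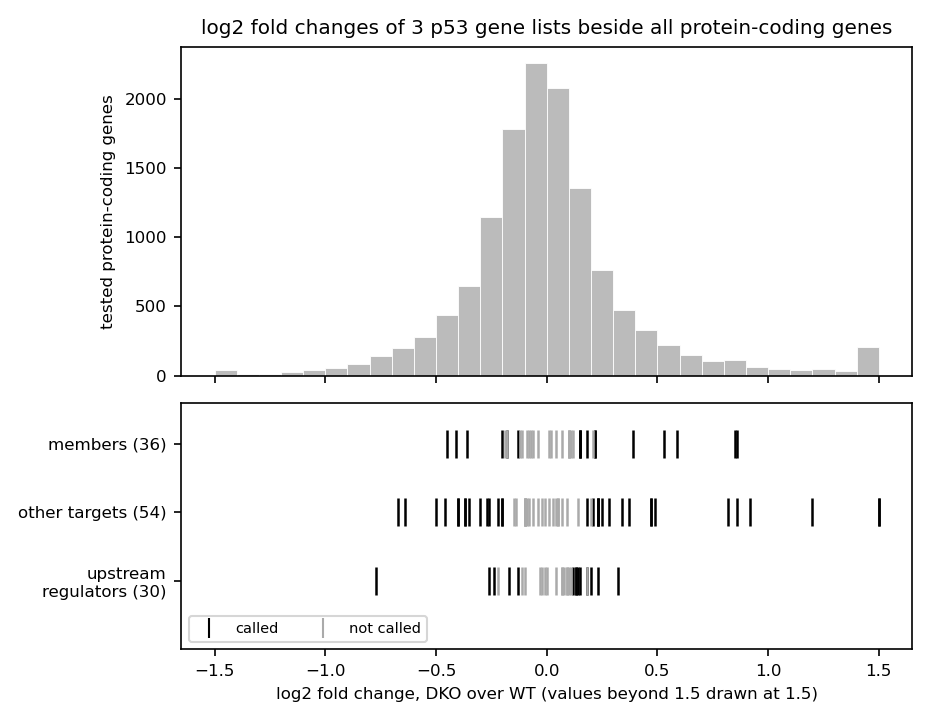
Log2 fold change of DKO over WT (x axis) as a histogram of the 13178 tested protein-coding genes (top, number of genes per bin) and as 1 tick per gene for the 36 members, 54 other targets and 30 upstream regulators (bottom, black for called, grey for not called; values beyond 1.5 are drawn at 1.5). The members lie between -0.45 and 0.86, and ticks fall on both sides of 0 in each list.

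Spans of the 36 tested genes ran from 2.13 kb for GADD45B to 373 kb for ASCC3, with a median of 23.2 kb. Across these genes, which share the same 4 libraries, log10 of the span and the log2 fold change had a Pearson r of 0.16 and a Spearman rho of 0.22, beside 0.19 and 0.25 over the 13178 protein-coding genes. Levels per kb of span in WT ran from 0.23 CPM per kb for FAS to 13 for PLK2, with a median of 1.95. MDM2 stood at 4.32, CDKN1A at 2.76, GDF15 at 4.83 and BAX at 1.92 CPM per kb. The sources used here do not say if introns were counted, so these levels are approximate.

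The genes that were not tested were EDA2R, SPATA18 and TIGAR. EDA2R, a receptor gene of the TNF receptor family, had 6 and 15 reads in DKO and 5 and 1 in WT. The ratio of summed reads was 3.37, with a 95% counting interval of 1.32 to 10.2. That interval covers read sampling only and leaves out the spread between libraries, so no change is read from it. SPATA18, a gene of mitochondrial quality control, had 4 and 2 against 2 and 2 reads. TIGAR, which encodes a fructose bisphosphatase, is listed at 0 in every library. So are RPS10, RPL17, RPL26, EIF4A1, ATP5PO and PSMA2, which every cell uses, and 2639 of 19299 protein-coding genes in all, so nothing is read from the 0 of TIGAR.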

How the data were processed

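The members, roles and lists were chosen with earlier results of these data known. The files deposited by the authors hold raw read counts per gene, 1 library per file. STAR 2.7.3a, featureCounts 1.6 and build hg38 are named per the submitters' processing notes. The gene set, the strand setting and the counted feature (exon or gene) were not stated. Per the labels' protocols, 66 ng of labelled RNA entered a stranded kit and single reads of 75 bp were made. Without a spike-in, values are relative within each library.

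IDs were matched to symbols (42020 of 60656) and RefSeq spans of GRCh38.p14 (40517). The fit used edgeR 4.0.16 in R 4.3.3: filterByExpr (minimum count 10, minimum total 15), TMM factors (0.992 to 1.005), the quasi-likelihood F-test with group as the only term and Benjamini-Hochberg adjustment over 19103 genes, called under 0.05. The standard error is the absolute log2 fold change over the square root of F. Replicates differed by more than sampling noise (chi-square per degree of freedom 4.57 in DKO, 3.98 in WT) and were kept apart. Alternatives used DESeq2 1.42.0, limma 3.58.1 (voom), other factors and filters, a replicate block, and each library left out.

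All 39 members are accounted for. Library values are given for each called member and for MDM2, CDKN1A, BBC3, BAX and PMAIP1, and up to 4 called genes per direction are named from the lists of regulators, other targets and long non-coding RNAs. Some single genes of the lists are not reported here. Library values of uncalled members and of overlapping genes were added after they had been seen. Figures used matplotlib 3.10.9.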

Additional observations from a re-analysis of the deposited data

How the results depend on the processing

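Counts of calls moved more than directions, which the lack of overlap between groups largely fixed for the called genes. Higher and lower calls among all tested genes came to 3632 and 4025, among the members to 11 and 6, among the other targets to 18 and 15 and among the upstream regulators to 9 and 5. With no filter beyond 1 read these became 1640 and 1655, 5 and 2, 11 and 7, and 4 and 1. The Wald test of DESeq2 left 2524 lower genes, and upper quartile factors raised the higher regulators to 14 and turned the split over all genes to 4226 higher and 3328 lower. Among the members, upper quartile factors gave 15 higher and 4 lower, and DESeq2 size factors 12 and 4, so their split moved with the scaling. With 1 library left out, calls ranged from 1023 to 3127 higher and 928 to 3443 lower over all genes, from 5 to 11 and 0 to 5 among the members, from 7 to 17 and 6 to 14 among the other targets and from 1 to 8 and 1 to 5 among the regulators. The lowest member counts came without WT replicate 1, where edgeR called 0 members lower although 4 had an unadjusted p under 0.05. The cause was not tested. The median log2 fold change of the members lay between 0.04 and 0.10 in the 12 alternatives. Signs turned only for genes without a call: with 1 library left out, AEN ranged from -0.06 (DKO replicate 1) through -0.02 (WT replicate 1) to 0.08, CMBL from -0.03 (DKO replicate 1) to 0.06, TNFRSF10A from -0.01 (DKO replicate 1) to 0.08, TRIAP1 from -0.19 to 0.02 (DKO replicate 2) and GADD45A from -0.10 to 0.03 (WT replicate 2). The labels do not say that replicate numbers mark a shared batch, and same-numbered libraries did not deviate together (r = 0.011). With the replicate number as a block, 3742 genes were higher and 4078 lower, and 12 members were higher and 5 lower, with RPS27L (adjusted p = 0.052) and FDXR (0.0596) lost and PPM1D (0.0441) and ASCC3 (0.011) gained. TNFRSF10C and PRDM1 have no value under the filter of 50 reads, nor TNFRSF10C an adjusted p from DESeq2. Of 36 members tested, 5 uncalled genes passed in at least 1 alternative. Depth limits small changes in genes with few reads: the standard error was 0.10 for PHLDA3 at 303 to 414 reads, and 0.05 for MDM2.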

Other observations

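Long non-coding RNAs that p53 is known to induce were read from the same fit. Of 14 names 11 were found in the tables and 6 were tested, with 2 higher and 1 lower (50% called, beside 40.1% of all tested genes). PURPL, which restrains p53 in colorectal cells, was read at 8.56 and 8.63 CPM in DKO against 5.34 and 4.44 in WT, a 1.76-fold difference (log2 0.81 ± 0.10, edgeR adjusted p = 4.07e-12), and kept its call in all 12 alternatives. PINCR had 87 and 95 reads in DKO against 49 and 63 in WT (0.65 ± 0.19, edgeR adjusted p = 0.00308). It lost its call in 3 of the 12 alternatives. These were the Wald test of DESeq2 (0.0909), no filter beyond 1 read (0.0916) and the fit without WT replicate 1 (log2 fold change 0.47). PVT1, the neighbour of MYC, was lower, at 1527 and 1588 CPM against 1883 and 1907 (-0.28 ± 0.06, adjusted p = 9.51e-06). Its call ended without WT replicate 1 (0.0701) or WT replicate 2 (0.0573), over a range of 9.72e-14 to 0.0701. MIR34AHG, the host transcript of miR-34a, was at 73.1 and 76.5 CPM in DKO and 80.7 and 78.1 in WT (-0.09 ± 0.05, adjusted p = 0.158), and NEAT1 at 254 and 278 against 280 and 254 CPM (-0.01 ± 0.05, adjusted p = 0.927), with overlapping groups. DINOL, which lies within the CDKN1A span on the other strand, had 1 and 7 reads in DKO and 0 in both WT libraries, too few to test.

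Reads of neighbours that share a span with a member are given as values. NUDCD2 covers 55.4% of the CCNG1 span and was at -0.03 ± 0.07 on the log2 scale (adjusted p = 0.803). CPM, a carboxypeptidase gene, covers 20% of the MDM2 span and was higher (0.26 ± 0.11, adjusted p = 0.0425). FAM228B covers the whole span of TP53I3 and was at 0.05 ± 0.09 (adjusted p = 0.691).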
